A study of Mus musculus with 6 samples.

Results

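The genes described here lie around Cyp1b1 on mouse chromosome 17: Qpct, Cox7a2l, Slc8a1, Cdc42ep3, Myl12a, Gpatch11, Cebpzos, Tgif1, Heatr5b and Strn. They were chosen by name, as genes within 10 Mb of Cyp1b1 that had differed between the genotype labels in these same libraries, and all 10 were found among the 21900 genes of the deposited table. Their differences between the labels are therefore given as a description, without a test. RNA-seq was made from mouse lungs after 10 weeks on a high fat diet, which the series title calls western. There are 3 libraries with the genotype label Cyp1b1 KO and 3 labelled Wild Type. Each label holds 2 females (numbered 1 and 2) and 1 male (numbered 3), and all 6 had the diet, so there is no group on another diet. Strain, age, the design of the knockout allele and backcrossing are not given in the labels. The labels also do not state that libraries come from different mice, and the p-values below cover the spread from library to library, which may be technical.

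CYP1B1 is a cytochrome P450 whose substrates include oestrogens, retinoids and aromatic hydrocarbons. Genes that lie close together on a chromosome tend to be inherited together. In mouse lines made by gene targeting, DNA beside the targeted gene is passed on with it, and alleles of the strain that supplied the targeted cells can persist there through backcrossing to another strain. The neighbours of Cyp1b1 have unrelated functions: among these 10 are an enzyme, a mitochondrial assembly factor, an ion exchanger, cytoskeletal and scaffold proteins and a transcriptional repressor. Which strain's alleles these mice carried was not tested.

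Values are CPM, reads per 1000000 reads assigned to genes. Depth, read from the smallest step between low CPM values, ran from 22.3 to 27.6 M assigned reads (M, 1000000) under the knockout label and from 20.2 to 23.9 M under the wild type label, and the members had between 44 and 7887 reads per library. The level worth 3 reads was at most 0.148 CPM, below every value given for the 10 genes. The words "labelled knockout" and "labelled wild type" are used throughout because Cyp1b1 itself went against the label: it was at 51.2, 56.1 and 48.4 CPM in labelled knockout 1, 2 and 3, against 12.5, 19.0 and 18.5 CPM in labelled wild type 1, 2 and 3. A CPM per gene does not show which exons were read. Whether each library carries the right genotype label was not tested. Lung identity was plain from the alveolar type 2 markers, 4 of 4 found, which summed to between 12823 and 17398 CPM in the libraries labelled knockout and between 14384 and 18621 CPM in those labelled wild type. The male labelled knockout stood apart in neutrophil markers, 7 of 7 found and none at 0, which summed to 4796 CPM in it and to at most 188 CPM in the females of its label, against 123 to 286 CPM in the libraries labelled wild type. It also stood apart from the females of its label in erythroid markers, at 3638 CPM against 815 and 549 CPM. Its B cell markers summed to 49.3 CPM, against 191 and 137 CPM in those females. The libraries labelled wild type had 581 to 1790 CPM of erythroid and 108 to 196 CPM of B cell markers. In bulk lung, fewer cells of a type and less RNA per cell cannot be told apart.

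Of the 6 members within 1 Mb, Strn, Heatr5b and Gpatch11 are next to each other and were higher in the libraries labelled knockout. Cebpzos, Qpct and Cdc42ep3 follow toward Cyp1b1, with other genes between them, and were lower. Heatr5b and Gpatch11 stand head to head, with 202 bases between their annotated starts in GENCODE M21. The stretch between the annotated start of Heatr5b and the RefSeq start of Gpatch11, and the 250 bases before the RefSeq start of Cebpzos, are shown because the first lies between 2 starts whose genes were both higher and the second precedes the next gene among the 10, which was lower. Both are from RefSeq tables of build GRCm38.p6, the same coordinates as mm10, on the plus strand, at chr17:78835365-78835515 and chr17:78916249-78916498, and read 5′ to 3′.
Gpatch11-Heatr5b interval: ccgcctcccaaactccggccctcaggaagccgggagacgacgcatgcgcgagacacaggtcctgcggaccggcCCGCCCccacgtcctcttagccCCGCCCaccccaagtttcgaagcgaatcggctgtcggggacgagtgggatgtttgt
Cebpzos upstream: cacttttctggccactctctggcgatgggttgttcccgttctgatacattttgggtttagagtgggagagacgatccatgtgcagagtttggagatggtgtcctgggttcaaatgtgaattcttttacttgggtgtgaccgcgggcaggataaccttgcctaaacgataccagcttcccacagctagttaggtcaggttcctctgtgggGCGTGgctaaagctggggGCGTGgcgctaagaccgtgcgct
In the first stretch, of 151 bases with 67.5% G or C, capitals mark the GC box, whose letters are GGGCGG and which stands there on the other strand. In the second, with 53.2% G or C, capitals mark the core of the aryl hydrocarbon receptor element, whose letters are GCGTG. The tables hold 32851 promoter windows of 300 bases, searched on both strands, of which 35.7% held the GC box and 32.4% held the receptor core, so both are common. They give 12 windows for 8 of the 10 genes, and none for Qpct and Heatr5b. Of the 12, 7 held the GC box and 6 the receptor core. Some genes have more than 1 window, so the 12 are not independent. The GC box windows were of Cdc42ep3, Cox7a2l, Gpatch11, Myl12a, Strn and Tgif1. Those with the receptor core were of Cebpzos, Myl12a, Slc8a1, Strn and Tgif1. The NF-Y box, with the letters CCAAT, was in 2 of the 12 windows and in 37.4% of all windows. The ETS motif was searched as CCGGAAG and was in 0 of the 12, against 8.86% of all windows. The TATA box was searched as TATAAA and was in 0 of the 12, against 13.6% of all windows. The CRE, TGACGTCA, was in 0 of the 12, against 1.79% of all windows. No motif overlaps another in the letters marked. These matches describe the letters, and factor binding was not measured.

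Qpct had the largest difference of the 10. It encodes glutaminyl cyclase, which turns an N-terminal glutamine of secreted proteins into pyroglutamate, and lies at chromosome 17, 79051906 to 79090378 (mm10), 0.611 Mb from Cyp1b1. Qpct was at 2.91, 3.26 and 2.38 CPM in labelled knockout 1, 2 and 3, against 8.62, 10.1 and 11.95 CPM in labelled wild type 1, 2 and 3. Every library labelled knockout was below every library labelled wild type, and the gap was wider than the range within either label. The means were 2.85 ± 0.446 CPM under the knockout label and 10.2 ± 1.67 CPM under the wild type label (SD, n = 3 each), and the difference of log2(CPM + 0.5), labelled knockout minus labelled wild type, was -1.68 with a standard error of 0.25. It was -1.46 between the females and -2.11 between the males.

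Cebpzos, a small gene on the strand opposite Cebpz (chromosome 17, 78916500 to 78920306), had the next lower value. It was at 1.97, 4.35 and 3.43 CPM in the libraries labelled knockout, against 9.55, 4.90 and 7.13 CPM in those labelled wild type. The labels did not overlap, but labelled wild type 2 was close to labelled knockout 2. The log2 difference was -1.04 (SE 0.35). Its reads in a library were as few as 44. Cebpzos shares 1301 of its 3807 bases with the end of Cebpz, and the strand setting of the counting is not given in the sources used here, so reads there cannot be told apart. Cebpz, a nucleolar factor, was at 50.2, 45.0 and 47.6 CPM in the libraries labelled knockout, against 42.8, 44.0 and 42.6 CPM in those labelled wild type, also without overlap and in the other direction. Summed, the pair came to 50.8 ± 1.41 CPM under the knockout label and 50.3 ± 1.81 CPM under the wild type label (SD, n = 3 each), a log2 difference of 0.01, and the labels overlapped.

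Heatr5b, Gpatch11 and Strn, all within 1 Mb of Cyp1b1, were higher in the libraries labelled knockout. Gpatch11, a G-patch domain protein (chromosome 17, 78835567 to 78848308), was at 21.7, 24.8 and 17.7 CPM, against 14.4, 16.7 and 13.4 CPM in those labelled wild type (log2 difference 0.51, SE 0.16). Heatr5b, a HEAT-repeat protein of endosome traffic (78752898 to 78835364), was at 47.0, 51.6 and 51.7 CPM in the libraries labelled knockout, against 35.1, 44.2 and 36.2 CPM in those labelled wild type (log2 difference 0.38, SE 0.13). Neither gene's labels overlapped, and labelled wild type 2 was the closest to the libraries labelled knockout for both. Strn encodes striatin, the scaffold of a complex that joins a phosphatase to kinases (78649913 to 78737196). It was at 74.0, 64.3 and 86.9 CPM in the libraries labelled knockout, against 59.5, 60.6 and 58.7 CPM in those labelled wild type (log2 difference 0.32, SE 0.12). Its libraries labelled wild type were close together and the male labelled knockout was the highest. Between the females the log2 difference of Strn was 0.20.

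Cdc42ep3 is the member nearest to Cyp1b1, 0.346 Mb away, and encodes an effector of the small GTPase Cdc42 that acts on septins and actin (79333727 to 79355091). It was at 36.4, 34.9 and 29.4 CPM in the libraries labelled knockout, against 45.4, 43.5 and 42.9 CPM in those labelled wild type. The labels did not overlap, and the means of 33.6 ± 3.69 CPM under the knockout label and 43.9 ± 1.34 CPM under the wild type label (SD, n = 3 each) gave a log2 difference of -0.39 (SE 0.12).

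On the other side of Cyp1b1 lie Slc8a1 and Cox7a2l. Slc8a1 encodes the sodium-calcium exchanger of the plasma membrane, abundant in heart muscle (81373105 to 81738377, 1.66 Mb from Cyp1b1). It was at 63.6, 62.1 and 77.4 CPM in the libraries labelled knockout, against 49.5, 48.3 and 58.2 CPM in those labelled wild type (log2 difference 0.38, SE 0.10). The labels did not overlap, and the male was the highest library of each label. Mouse lung holds heart muscle around the pulmonary veins: its 8 listed markers, all found and none at 0, summed to between 1184 and 2237 CPM in the libraries labelled knockout and between 1363 and 1785 CPM in those labelled wild type, highest in the male labelled knockout. Their part in the Slc8a1 values was not tested. In the females, where the marker sums were 1184 and 1454 CPM in labelled knockout 1 and 2, against 1363 and 1785 CPM in labelled wild type 1 and 2, Slc8a1 was 0.36 higher on the log2 scale in those labelled knockout.

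Cox7a2l encodes a factor that joins respiratory chain complexes into supercomplexes (83501918 to 83517330, 3.79 Mb from Cyp1b1), and the length of its protein is known to differ between inbred mouse strains. It was at 95.6, 89.2 and 104.7 CPM in the libraries labelled knockout, against 129.6, 118.0 and 139.3 CPM in those labelled wild type. The labels did not overlap. The means were 96.5 ± 7.77 CPM under the knockout label and 129.0 ± 10.6 CPM under the wild type label (SD, n = 3 each), a log2 difference of -0.42 (SE 0.10), and the difference had about the same size in the females (-0.42) and in the males (-0.41).

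Tgif1 and Myl12a are the farthest of the 10, at 8.85 and 8.70 Mb from Cyp1b1. Tgif1 encodes a homeobox repressor of TGF-beta and retinoid signalling (70844205 to 70853546). It was at 19.9, 25.8 and 12.9 CPM in the libraries labelled knockout, against 30.2, 28.1 and 46.7 CPM in those labelled wild type (log2 difference -0.84, SE 0.28). The male labelled knockout was the lowest of all libraries and the male labelled wild type the highest, while labelled knockout 2 and labelled wild type 2 lay close together. Myl12a encodes a regulatory light chain of nonmuscle myosin (70993656 to 71002878). It was at 229, 246 and 201 CPM in the libraries labelled knockout, against 330, 287 and 246 CPM in those labelled wild type (log2 difference -0.35, SE 0.11). Its labels met, since labelled knockout 2 and labelled wild type 3 had almost the same value. Of its 9223 bases, 8553 lie within Gm49909 (ENSMUSG00000117098, which GENCODE M21 gives the symbol Myl12b, as it does a neighbouring gene), so these genes can share reads. Gm49909 was at 153, 160 and 122 CPM in the libraries labelled knockout, against 137, 104 and 110 CPM in those labelled wild type. Myl12a and Gm49909 summed to 370.2 ± 42.7 CPM under the knockout label and 405.0 ± 56.7 CPM under the wild type label (SD, n = 3 each), a log2 difference of -0.13, within the spread of either label. The span of Gm49909 also overlaps that of Myl12b on the same strand. With Myl12b added, the sum was 656.6 ± 125.6 CPM under the knockout label and 744.8 ± 105.3 CPM under the wild type label, a log2 difference of -0.19.

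**Figure D1:**
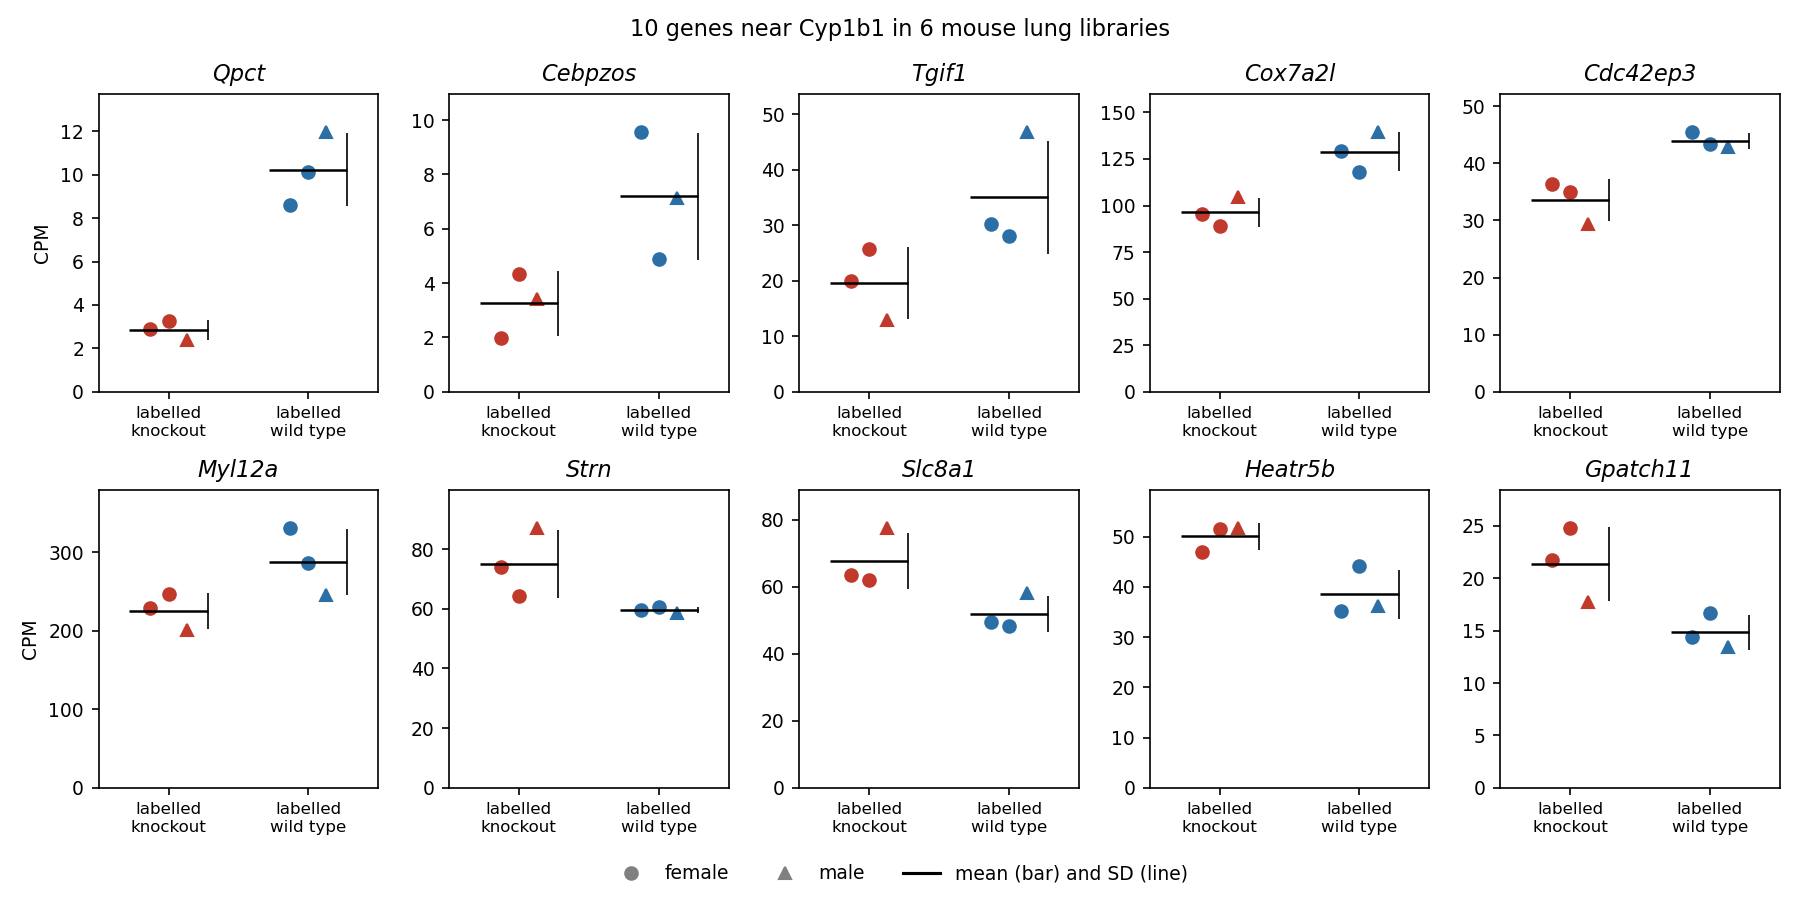
CPM of the 10 genes near Cyp1b1 in each of 6 lung libraries, labelled knockout on the left and labelled wild type on the right of each panel, with an axis from 0; circles are females, triangles males, the bar is the mean and the thin line the SD (n = 3). Panels run from the most negative log2 difference (Qpct, -1.68) to the most positive (Gpatch11, 0.51), and the labels touch for Myl12a alone.

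**Figure D2:**
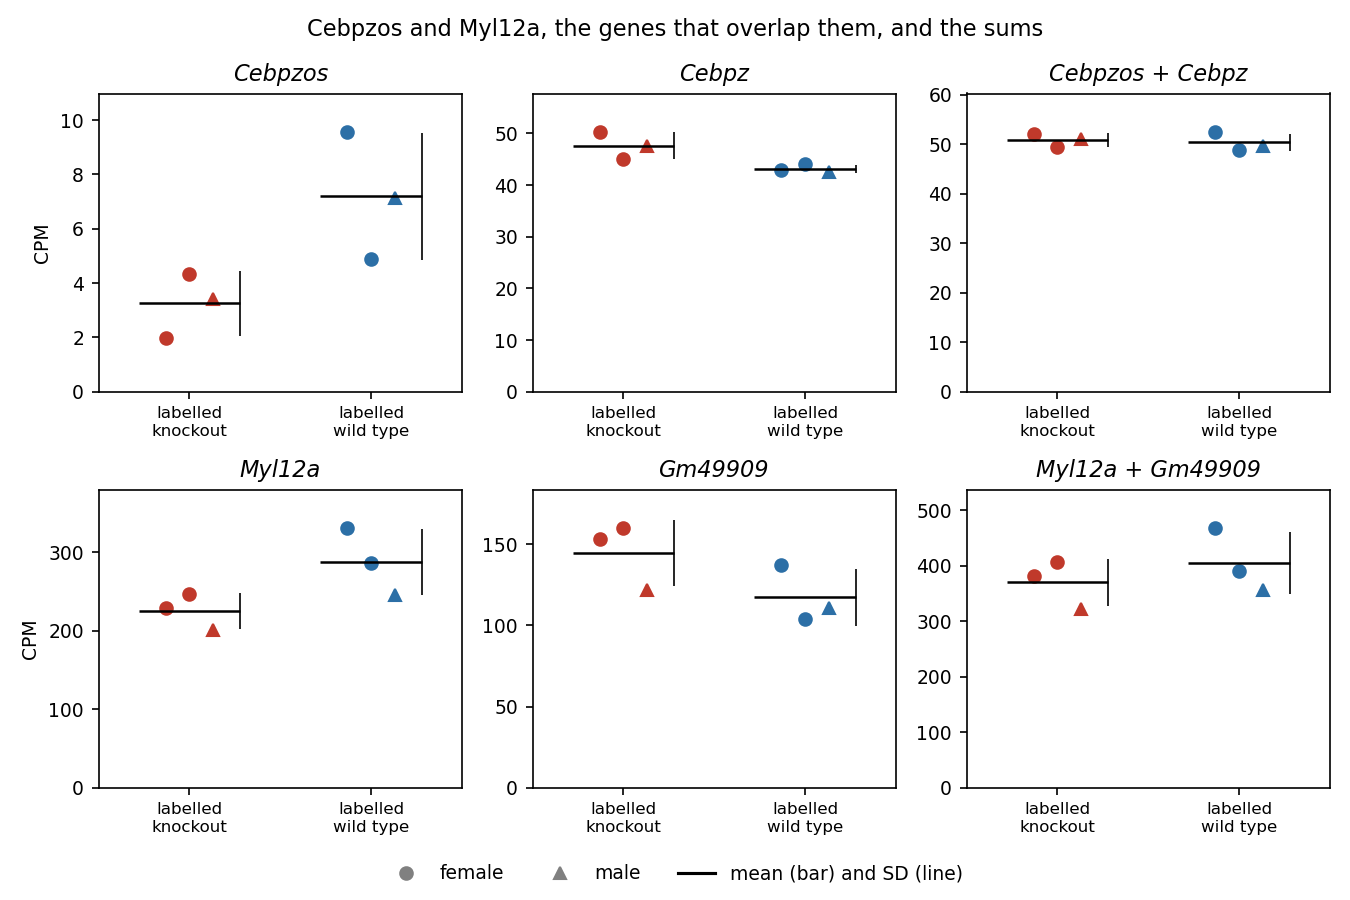
CPM of Cebpzos and Myl12a, of Cebpz and Gm49909, whose annotated spans overlap theirs, and of the sums, in each library, labelled knockout left of labelled wild type; symbols as circles for females and triangles for males, with mean and SD. The sum of Cebpzos and Cebpz is 50.8 CPM under the knockout label and 50.3 CPM under the wild type label.

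Counted together, 9 of the 10 genes had labels that did not overlap, 4 higher and 5 lower under the knockout label, where 9.52% of the 17382 genes tested did so, 3.63% higher and 5.89% lower. The genes were chosen on this contrast, so nothing is read from that count. All 10 had the same sign between the females and between the males, against 54.5% of all genes, with the same limit. Of the 10, Strn had the smallest difference, 0.32. The 10 do not exhaust the region above that size. Clip4 (-0.35), Rpsa-ps7 (0.47), Haao (-0.42), Epas1 (0.38) and Thumpd2 (0.34) were left out although their labels did not overlap, besides genes named below. Prkce, left out with labels that overlapped, was at 0.32, just under Strn. All of these were named after their values were seen. Other genes with labels that overlapped were also above the size of Strn, and not all are named here. Levels per kb of merged exon compare the genes with one another. Myl12a (67.1 ± 6.73 CPM per kb in the libraries labelled knockout and 85.7 ± 12.5 in those labelled wild type) and Cox7a2l (65.3 ± 5.26 CPM per kb under the knockout label and 87.3 ± 7.19 under the wild type label) were the highest and did not differ from each other beyond their spread under either label. Cdc42ep3 came next, at 14.6 ± 1.596 CPM per kb under the knockout label and 19.0 ± 0.581 under the wild type label. In the libraries labelled knockout the order went on with Strn, Heatr5b, Slc8a1, Gpatch11, Tgif1, Cebpzos and Qpct, of which Slc8a1 to Cebpzos overlapped neighbour by neighbour. In those labelled wild type it went on with Strn, Cebpzos, Tgif1, Heatr5b, Qpct, Slc8a1 and Gpatch11, and every neighbour in that run overlapped except Qpct and Slc8a1. Qpct was last in the libraries labelled knockout, at 1.12 ± 0.175 CPM per kb, below all libraries of the gene before it, and Gpatch11 last in those labelled wild type, at 2.41 ± 0.270 (SD, n = 3 each).

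The region around the 10 genes gives their setting. The table has 151 genes within 10 Mb of Cyp1b1, of which 109 had a mean of at least 0.5 CPM and were tested by limma, with genotype label and sex as terms. Among these, 19 had an unadjusted p under 0.05 (9 higher and 10 lower under the knockout label), or 17.4%, against 5.13% of all genes tested (1.8% higher and 3.33% lower) and 5.02% of those on other chromosomes. The 19 include the 10 genes and Cyp1b1, which were chosen or targeted, so nothing is read from that share; of the 98 others, 8 did (8.16%). None of the 109 had an adjusted p under 0.05, which 2 of the 17382 genes had (0.0115%). Within 1 Mb of Cyp1b1, 8 of 26 genes had an unadjusted p under 0.05 and 10 had labels that did not overlap, but 7 of the 8 and 7 of the 10 are Cyp1b1 and members. With those set aside, 1 of 19 genes within 1 Mb had an unadjusted p under 0.05 (5.26%) and 3 did not overlap (15.8%). From 1 to 5 Mb the other genes gave 0 and 3 of 23, and from 5 to 10 Mb 7 (12.5%) and 5 (8.93%) of 56. Beyond 10 Mb on the same chromosome, 44 (5.91%) and 71 (9.54%) of 744 genes did so. The median size of the log2 difference of the other genes was 0.15 within 1 Mb, 0.12 from 1 to 5 Mb, 0.20 from 5 to 10 Mb and 0.18 beyond, against 0.16 over all genes tested. These shares did not fall steadily with distance. They are a description: genes that differed had been taken out as members, which lowers what is left, and no test between bands was made.

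Between Strn and Cyp1b1, a stretch bounded after its values were seen, lie 6 of the 10 genes and 6 others. Of those 6 others, 1 (Gm6548) had an unadjusted p under 0.05 and 2 did not overlap. On the other side of Cyp1b1, within 1 Mb, 0 of 13 genes had an unadjusted p under 0.05 by limma, 0 an adjusted one, and 1 did not overlap. Over all genes tested, 5.13% had an unadjusted p under 0.05, 0.0115% an adjusted one, and 9.52% did not overlap. No test of the difference between the sides was made.

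**Figure D3:**
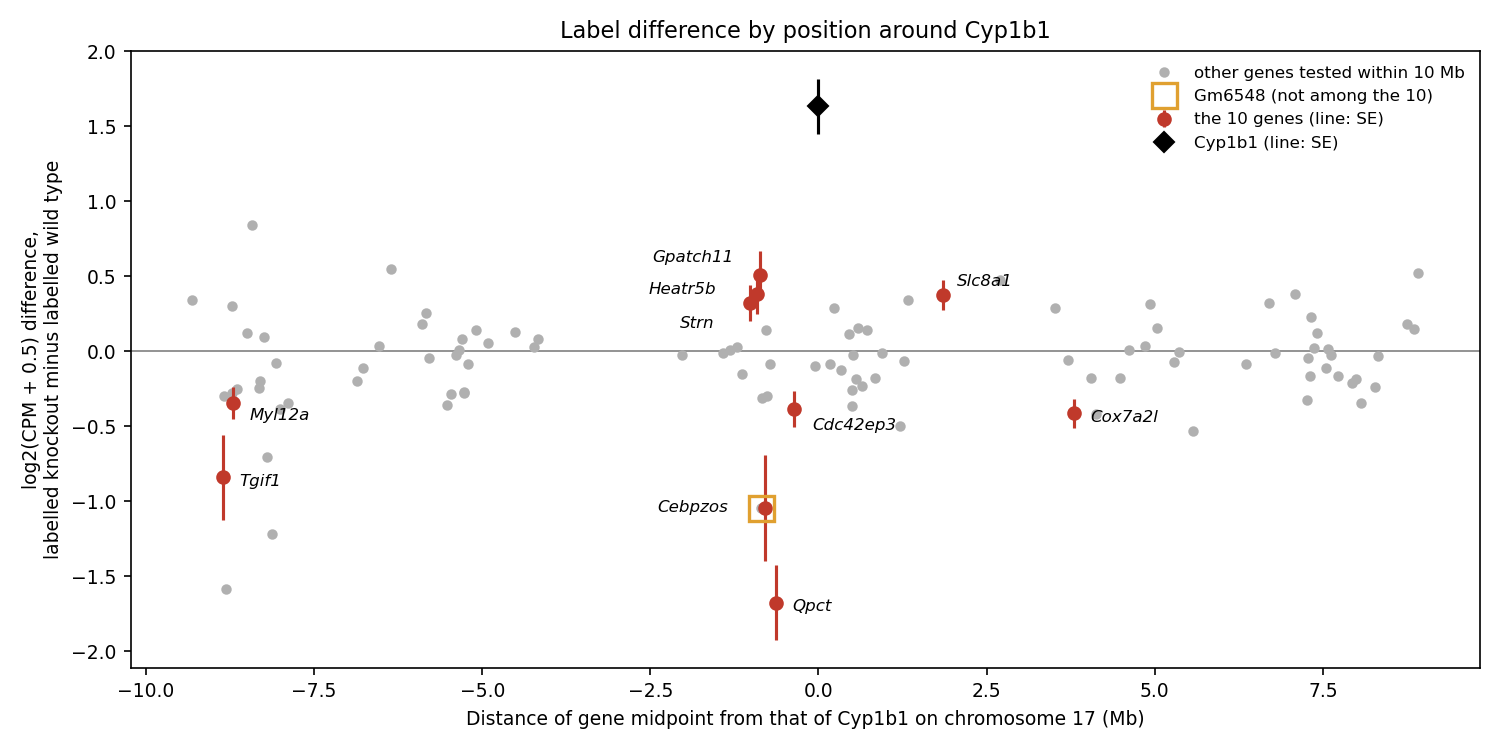
Difference of log2(CPM + 0.5), labelled knockout minus labelled wild type, of the 109 genes tested within 10 Mb, against distance of the gene's midpoint from that of Cyp1b1 in Mb; red points are the 10 genes and the black diamond Cyp1b1, with their SE, and the open square marks Gm6548. On the side of Strn (0.32), within 1 Mb, Qpct is the lowest point at -1.68 and Gpatch11 the highest at 0.51.

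**Figure D4:**
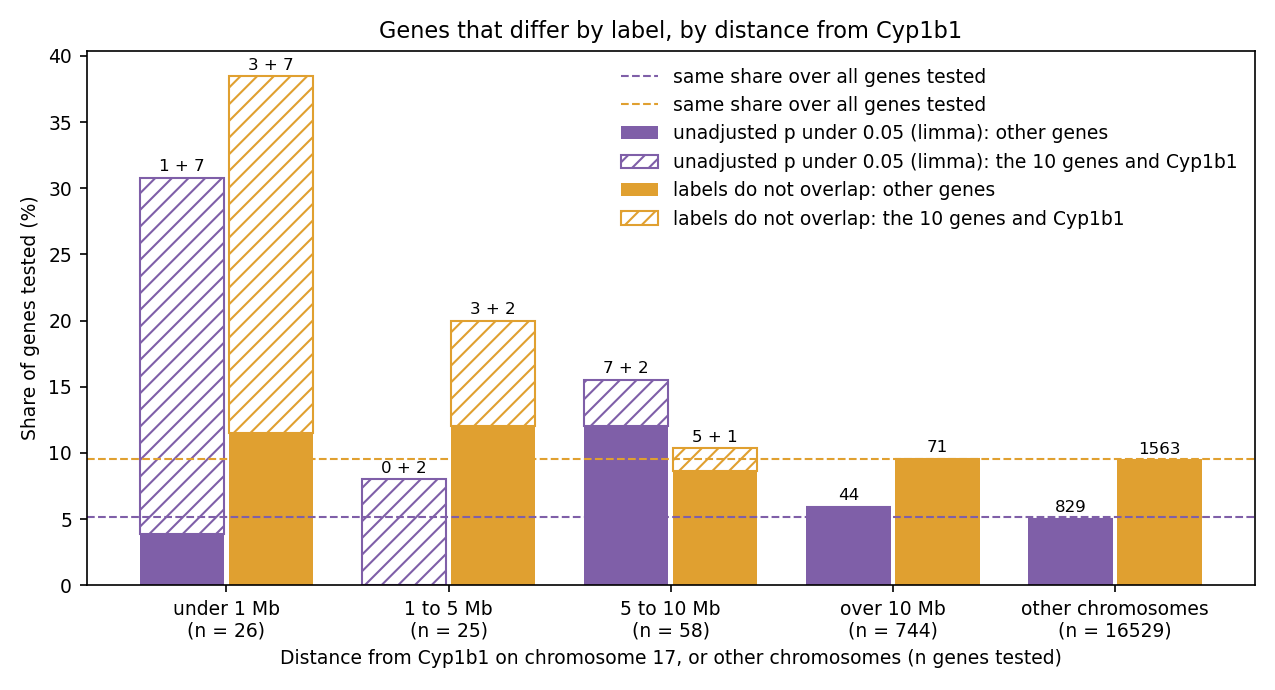
Share of genes tested (in percent) with an unadjusted limma p under 0.05 and with labels that do not overlap, by distance from Cyp1b1; filled parts are other genes and hatched parts Cyp1b1 and the 10 genes, which were chosen on this contrast. Numbers are genes (other, then chosen or targeted), n is the number tested, and dashed lines are the shares over all genes tested, 5.13% and 9.52%; within 1 Mb, 7 of 8 and 7 of 10 genes are in the hatched parts.

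Among genes of the region other than the 10 and Cyp1b1, the processed pseudogene Gm6548 (78850792 to 78851956) had the smallest unadjusted p. It lies between Gpatch11 and Cebpzos and was at 5.34, 5.61 and 6.18 CPM in the libraries labelled knockout, against 11.3, 11.3 and 14.7 CPM in those labelled wild type (log2 difference -1.05, SE 0.19, limma adjusted p = 0.469). The labels did not overlap and were far apart, although the gene missed the threshold; as a processed pseudogene it can share reads with copies elsewhere. The next was the lincRNA Gm26510 (70874349 to 70924996), which lies between Tgif1 and Myl12a, 8.78 Mb from Cyp1b1, and is named after its values were seen because its mean is under 1 CPM. It was at 0, 0.0363 and 0.0780 CPM in the libraries labelled knockout, all below the level of 3 reads, against 0.963, 1.34 and 1.07 CPM in those labelled wild type. The labels did not overlap; the difference of log2(CPM + 0.5), a scale that understates the change of so low a gene, was -1.59 (SE 0.35, limma adjusted p = 0.771). The Trmt61b entry ENSMUSG00000085492, 8.10 Mb away and annotated as antisense, was at 1.36, 2.74 and 0.952 CPM in the libraries labelled knockout, against 5.02, 3.21 and 4.87 CPM in those labelled wild type (log2 difference -1.22, limma adjusted p = 0.775). Emilin2, an elastic fibre glycoprotein, was at 51.5, 30.3 and 164 CPM in the libraries labelled knockout, against 37.8, 25.1 and 46.1 CPM in those labelled wild type. Its mean was set by the male labelled knockout, the library with the high neutrophil sum. The part of neutrophils in the Emilin2 values was not tested. Ston1, an endocytic adaptor, differed by 0.52, Togaram2 by -0.38 and Gm49909 by 0.30 on the log2 scale, each with labels that overlapped and a limma adjusted p of 0.775. The nearest genes outside the 10 on either side differed by less than Cyp1b1 itself, which was 1.63 higher on the log2 scale (SE 0.18). Rmdn2, 0.0083 Mb away, averaged 16.97 ± 2.54 CPM under the knockout label and 18.3 ± 3.02 CPM under the wild type label, and Prkd3, a protein kinase D, averaged 100.7 ± 8.04 CPM under the knockout label and 107.0 ± 7.63 CPM under the wild type label. On the other side, Atl2, an atlastin that shapes the endoplasmic reticulum, averaged 52.6 ± 2.66 CPM under the knockout label and 55.9 ± 3.36 CPM under the wild type label. The pseudogene Gm6552 averaged 8.14 ± 0.312 CPM under the knockout label and 6.64 ± 1.38 CPM under the wild type label (SD, n = 3 each throughout). The log2 differences were -0.10 for Rmdn2, -0.09 for Prkd3, -0.09 for Atl2 and 0.29 for Gm6552, and they had limma adjusted p-values between 0.776 and 0.900.

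Relatives of the 10 genes were listed by family and not for a difference, although earlier results of these data were known, and were tested. All lie on other chromosomes except Myl12b, which is 8.71 Mb from Cyp1b1 and is counted among the genes of the region too. Of 21 listed relatives, all tested, 0 had an adjusted p under 0.05 by limma, 0 had an unadjusted p under 0.05, and 0 had labels that did not overlap, where 9.52% of all genes did. Their log2 differences ran from -0.35 to 0.16 with a median of -0.04, close to the -0.06 over all genes. Qpctl, the Golgi glutaminyl cyclase, was at 15.1, 17.2 and 14.3 CPM in the libraries labelled knockout, against 16.6, 14.7 and 16.7 CPM in those labelled wild type (log2 difference -0.04, SE 0.16, limma adjusted p = 0.953). The 2 labels overlapped fully for it. Of the Cdc42 effectors, Cdc42ep1 differed by 0.08, Cdc42ep2 by 0.07, Cdc42ep4 by 0.14 and Cdc42ep5 by 0.02. Cox7a1 and Cox7a2, subunits of cytochrome oxidase, differed by -0.29 and -0.30, in the direction of Cox7a2l, with limma adjusted p-values of 0.792 and 0.775. The exchangers Slc8a2 and Slc8a3, both under 2 CPM on average, differed by 0.03 and 0.04 and the mitochondrial exchanger Slc8b1 by -0.35, where labelled wild type 3 stood at 49.5 CPM and the other libraries of that label at 27.6 and 19.6 CPM. Strn3 and Strn4 differed by 0.05 and -0.07, Heatr5a by 0.12, Tgif2, the other TGIF repressor, by -0.29, and the G-patch genes Gpatch1, Gpatch2, Gpatch3, Gpatch4 and Gpatch8 by -0.12, -0.06, 0.16, -0.14 and 0.07. Of the myosin light chains, Myl12b, itself a neighbour of Myl12a, differed by -0.28 and Myl9 by -0.16. Myl12b overlaps Gm49909, so these 2 entries can share reads. A p above the threshold does not show that these genes were alike under both labels. Their standard errors ran from 0.10 to 0.38 on the log2 scale. The 10 genes were chosen on this contrast and the relatives were not, so nothing is read from the gap between them.

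**Figure D5:**
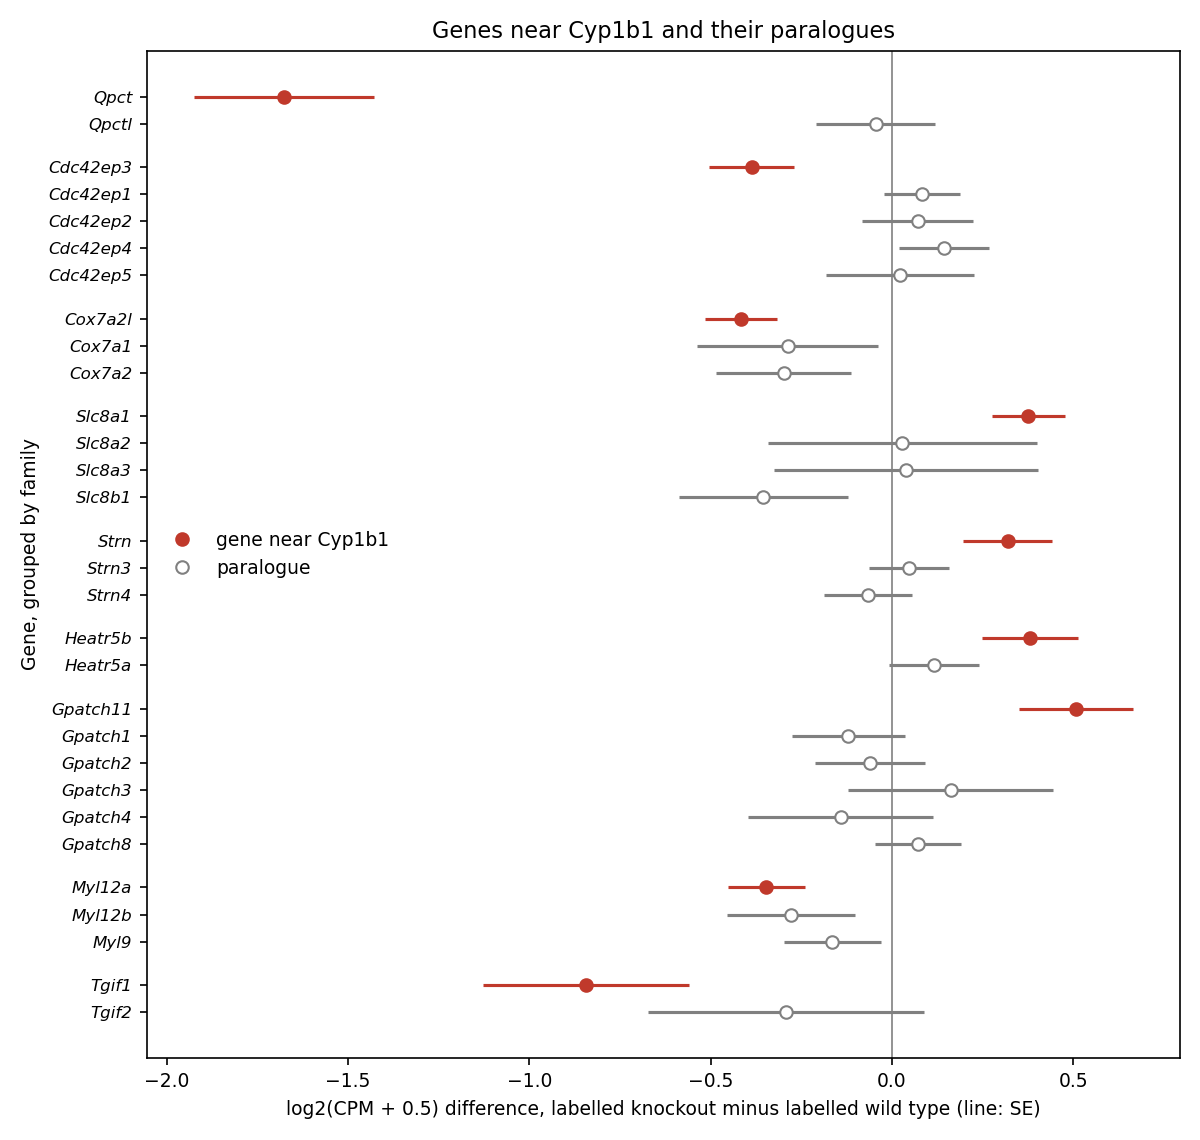
Difference of log2(CPM + 0.5), labelled knockout minus labelled wild type, with SE, for 9 of the genes near Cyp1b1 (red) and 21 relatives listed for them (open), grouped by family; Cebpzos has none in the list. Relatives lie between -0.35 and 0.16, with Qpct at -1.68 and Qpctl at -0.04. The genes in red were chosen on this contrast and the relatives were not, so nothing is read from the gap.

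Sex was a contrast that the choice of genes did not use. None of the 10 genes had an adjusted p under 0.05 for sex by limma, where 0.834% of all genes did, and 2 of 10 had an unadjusted p under 0.05, where 15.3% of all genes did. These were Slc8a1, 0.27 higher in males on the log2 scale (SE 0.11, limma adjusted p = 0.275), and Myl12a, 0.28 lower (sex difference -0.28, SE 0.11, limma adjusted p = 0.290). The interaction term, which asks whether the difference between labels in males was that in females, had an adjusted p under 0.05 for Tgif1 alone among the 10, where 2.54% of all genes did; Tgif1 was also the 1 member with an unadjusted p under 0.05, where 17.9% of all genes had one. The male labelled knockout had 12.9 CPM of Tgif1, against 46.7 CPM in the male labelled wild type. The females labelled knockout had 19.9 and 25.8 CPM, against 30.2 and 28.1 CPM for females with the wild type label. Its log2 difference was -1.82 between the males and -0.36 between the females (interaction -1.46, SE 0.30, limma adjusted p = 0.0455). The adjusted p ran from 0.0429 to 0.198 over 10 alternatives and passed in 3 of them. With 1 male per label, this compares 2 libraries beyond the spread of the females. The neutrophil sum was 4796 CPM for the knockout-labelled male against 286 CPM for the other male. In the same order, the erythroid sums were 3638 and 1790 CPM and the B cell sums 49.3 and 189 CPM. The part of these cells in the Tgif1 values was not tested. For the other 9 genes the interaction had an adjusted p of at least 0.407 by limma.

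Genes whose values over the 6 libraries were most like those of a member were sought among 12911 genes with a mean of at least 5 CPM, by the root mean square difference of log2(CPM + 0.5) values centred on each gene's mean. For Qpct, the closest were Gm6548 (0.359), Gm43951 on chromosome 11 (0.363) and Pot1b on chromosome 17 (0.374), which is 24.0 Mb from Cyp1b1. For Gpatch11, the closest were Eya1 on chromosome 1 (0.0740), Pkhd1l1 on chromosome 15 (0.0903) and Fzd3 on chromosome 14 (0.114). With 6 libraries, such likeness follows the split by label for which the members were chosen.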

How the data were processed

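Bulk lung RNA of 6 libraries was measured, 3 with each genotype label. The deposited values are CPM per gene, 1 column per library, to which the authors' table adds 0.0001; this was subtracted. Per the submitters' processing notes the build was mm10 and the tools named are Partek and TopHat2, with no version and no role for either; the sources used here do not state the annotation, filters or strand setting. Positions and exon lengths come from GENCODE M21 for 21846 of 21900 genes.

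Between 82.4% and 83.6% of values worth up to 100 reads were whole multiples of 1 read within 0.05, so no count model was used. limma 3.58.1 (R 4.3.3, variance trend) was fitted to log2(CPM + 0.5) of 17382 genes with a mean of at least 0.5 CPM, with label and sex as terms, plus an interaction in a second fit; Benjamini-Hochberg adjustment covered all genes tested. Tests were two-sided, with a threshold of 0.05, and the fit was tested on simulated data. Tables used Python 3.11.15, pandas 2.3.3 and matplotlib 3.10.9. Distance is the gap between the ends of a gene and of Cyp1b1, and between midpoints in the position plot.

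The members and lists were chosen with earlier results of these data known. Besides the members and Cyp1b1, genes named were listed relatives of at least 1 CPM, the 2 nearest tested genes per side, the 6 other genes of smallest p within 10 Mb with a mean of at least 1 CPM, and the 3 of most like values for the highest and the lowest member. Cebpz, Clip4, Epas1, Gm26510, Haao, Prkce, Rpsa-ps7 and Thumpd2 were added after their values were seen. Marker lists of 9 cell types were summed; in CPM, those not given with a result were alveolar type 1 1990 to 2359 under the knockout label and 1848 to 2684 under the wild type label, endothelial 2969 to 3111 under the knockout label and 2099 to 3168 under the wild type label, smooth muscle 951 to 1380 under the knockout label and 871 to 1629 under the wild type label. Another was alveolar macrophage, 126 to 151 under the knockout label and 128 to 151 under the wild type label. The ranges of lists also given above were B cell 49.3 to 191 under the knockout label and 108 to 196 under the wild type label, erythroid 549 to 3638 under the knockout label and 581 to 1790 under the wild type label. Alternatives were other pseudocounts, filters and scalings, no sex term, females alone, each library left out, and other windows.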

Additional observations from a re-analysis of the deposited data

Results flagged for a closer look

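For Tgif1, the log2 difference between labelled knockout and labelled wild type in males minus that in females was -1.46, and the interaction term of limma had an adjusted p of 0.0455. The term rests on 1 male per label and passed the threshold in 3 of 10 other settings, with adjusted p-values from 0.0429 to 0.198, and in none that left out a female. Neutrophil markers summed to 4796 CPM in the knockout-labelled male and 286 CPM in the other male. In the same order, erythroid markers summed to 3638 and 1790 CPM and B cell markers to 49.3 and 189 CPM. The part of these cells in the difference was not tested. Tgif1 was lower in the libraries labelled knockout in both sexes.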

How the results depend on the processing

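The 10 genes kept the sign of their label difference under all 14 other settings of the fit. Of 140 such values, 134 moved by less than 1 SD between replicates and 6 by more. All 6 were in Tgif1 (-0.36) and Qpct (-1.46), in the 4 females, without labelled knockout 3 or without labelled wild type 3. Those settings give the same value, since without either male the difference rests on the females. Other filters and the fit without a sex term cannot change these values. The 14 settings are therefore not 14 separate checks, and the genes were chosen on this contrast. Median centring moved the median of all genes by 0.10 on the log2 scale. Summing overlapping genes, chosen after seeing the data, took Cebpzos to 0.0144 with Cebpz and Myl12a to -0.13 with Gm49909.

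The interaction count of 1 of 10 genes became 0 with a pseudocount of 0.1, with no filter and with quantile normalization, and 0 without any 1 female; without either male the term cannot be estimated. Genes within 10 Mb with an unadjusted p under 0.05 numbered 12 to 17 without 1 library, against 19 of 109 in the main fit. The share over all genes tested ran from 2.63% to 7.89% without 1 library, against 5.13%. Without labelled knockout 1 they were 12 of 111 (3.83% of all genes). Within 5 Mb, a smaller set of genes, they were 10 of 51. Within 1 Mb they numbered 5 to 8, and 5 without labelled wild type 1 (5.64% of all genes). Labels without overlap within 10 Mb numbered 27 to 36 without 1 library, against 21 in the main fit. Fewer libraries make this easier, and the share over all genes tested ran from 16.8% to 24.4% without 1 library, against 9.52%. The count was 36 of 110 without labelled knockout 2 (24.4% of all genes) and 32 of 108 without labelled wild type 1 (18.8%). In the 4 females it was 42 of 108 (28.8% of all genes). These counts include the chosen genes and Cyp1b1. From Strn to Cyp1b1, likewise, the count with an unadjusted p under 0.05 was 5 to 8 without 1 library. On the other side it was 0 to 1, the 1 without labelled knockout 2. The relatives and the sex term gave 0 calls throughout.

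No paired analysis was possible because the labels carry no replicate numbers; the numbers used here follow accession order. Each label has 3 libraries and 1 male, and overlapping or antisense genes were not resolved. Cebpzos and Qpct rest on the fewest reads, 44 and 61 in their lowest library.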
